A study of Mus musculus with 16 samples.

Results

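The nuclear genes of the mitochondrial respiratory chain were followed complex by complex in mouse liver. Genes were taken by symbol (the Nduf, Uqcr, Cox4 to Cox8 and Atp5 subunit genes, the Sdh genes and Cyc1), and assembly factors, pseudogenes and genes with under 160 fragments summed over the 16 libraries were left out. The rule gave 82 genes of the 55471 gene identifiers in the files: 38 of complex I, 4 of complex II, 9 of complex III, 14 of complex IV and 17 of complex V. Of 108 identifiers with a fitting symbol, 8 were Ndufaf assembly factors, 13 were pseudogenes and 5 were under the count minimum. Just outside it were Cox6a2 (154 fragments) and Cox8b (108), and just inside it were Cox4i2 (170) and Cox6b2 (218). All 82 members also passed the count filter of the statistical model, which kept 17046 genes.

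Liver RNA was sequenced from 4 libraries in each of 4 groups. The groups were young adult mice of 12 weeks without antibiotics, aged mice of 102 weeks without antibiotics (the aged controls), and 2 groups of aged mice of 102 weeks exposed to antibiotics, labelled PAM I and PAM II. The series title places the antibiotic exposure in early life, and names metabolism, immunity and lifespan as its subject. The drugs, the doses, the meaning of PAM, the sex and the litters are not given in the sources used here. A free-text field words the 12-week mice as aged, and their title and age entries were followed instead. Labels do not say whether each library came from a separate mouse, so p-values measure the spread between these libraries.

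The respiratory chain sits in the inner mitochondrial membrane. Complex I takes electrons from NADH and complex II from succinate, both pass them to ubiquinone, complex III hands them on to cytochrome c, and complex IV gives them to oxygen. Complexes I, III and IV pump protons, and complex V, the ATP synthase, uses the return of the protons to make ATP. Complex II is encoded in the nucleus alone, whereas the other complexes also contain subunits encoded by mitochondrial DNA. Hepatocytes are rich in mitochondria, and bulk liver RNA mixes hepatocytes with other cells, so fewer cells of a type and less RNA per cell cannot be told apart.

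Libraries held between 36968993 and 52090914 fragments assigned to genes. The library young 1 stood apart: it had the fewest fragments, 20002 detected genes against 21886 to 23644 in the other libraries, and mitochondrial mRNA at 13.5% of its fragments against 3.98% to 8.77%. The 10 hepatocyte marker genes were all detected and summed to between 69134 and 126850 CPM (fragment counts scaled to the effective library size) in every library. Medians and counts of the members in comparisons with the young mice are therefore given with and without young 1.

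Within the liver the members spanned more than 3 orders of magnitude in level, given here as CPM per kilobase of summed exon length. In the aged controls, complex IV held the highest and the lowest member: Cox6a1, the form of subunit 6a made outside heart and muscle, at 393 ± 58 (SD, n = 4), and Cox6b2, the testis form of subunit 6b, at 0.222 ± 0.068. Uqcr11, a small subunit of complex III, had the highest level of its complex at 283 ± 49. In complex V, Atp5a1, the alpha subunit of the catalytic head, was at 284 ± 55 and Atp5b, the catalytic beta subunit, at 223 ± 50, whereas Atp5s (coupling factor B) was at 2.40 ± 0.078. The small complex I subunits Ndufa4, Ndufa2 and Ndufa1 lay at 146 ± 10, 142 ± 22 and 139 ± 15, closer together than their spread. Ndufa4 is now regarded as a subunit of complex IV, and it is kept in complex I here because the rule goes by symbol. In complex II, Sdhd, a membrane anchor, was at 113 ± 21 and Sdhc, the other anchor, at 54.3 ± 2.9.

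Exon length here sums all annotated exons of a gene, so long rare exons lower the value of genes such as Ndufb2 (5628 bases of exon for a small protein), which was listed at 4.31 ± 0.37. Several members, among them Uqcrh, Cox6c, Atp5k, Atp5l, Ndufab1 and Ndufs6, have processed pseudogenes, and fragments that fitted more than 1 place were not counted, so their levels are uncertain. Ndufb1-ps, a locus that RefSeq names as the protein-coding gene Ndufb1, was left out by the rule with 25917 fragments.

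**Figure D1:**
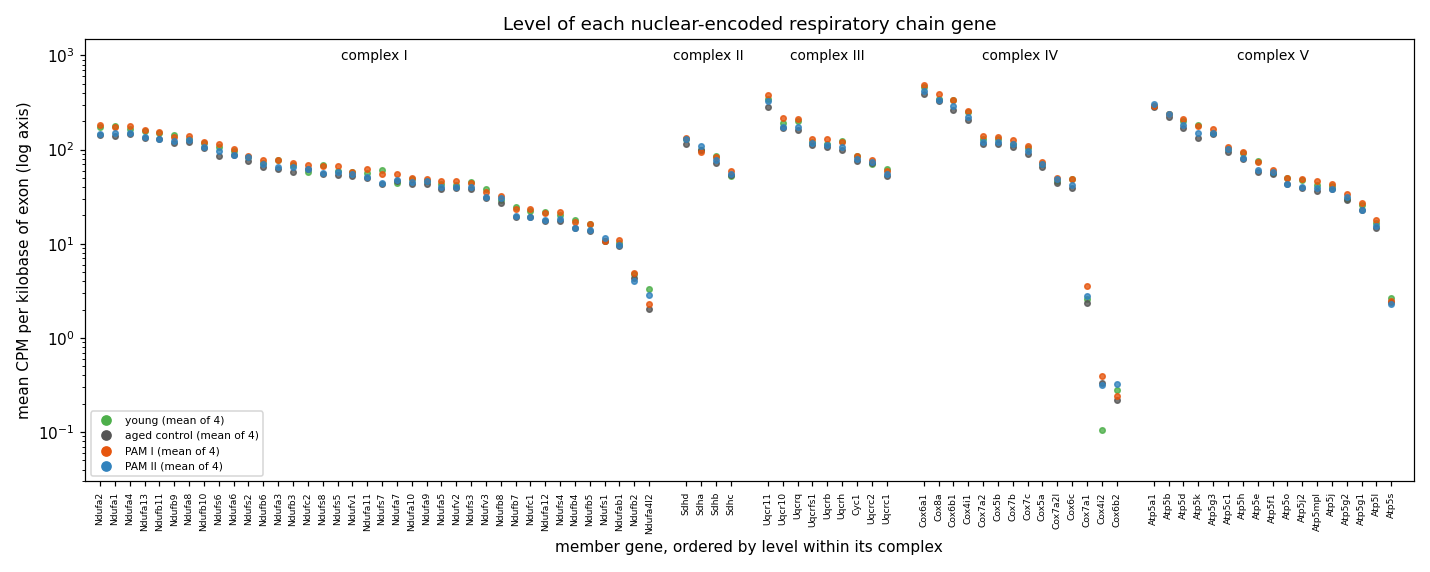
Mean CPM per kilobase of exon (log axis) of each of the 82 genes, ordered by level within its complex, with 1 point per group (mean of 4 libraries). The 4 points of most genes lie almost on each other. Cox7a1, Cox4i2, Cox6b2 and Atp5s lie far below the other members of their complexes, and Ndufa4l2 is the lowest of complex I, not far below Ndufb2.

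The promoters of these genes were read for short motifs of factors known to drive mitochondrial genes. RefSeq (GRCm38.p6) gave windows for 65 of the 82 members, 70 windows in all, each of 300 bases with 250 before the start. The core of the NRF1 site, GCGCATGCG, on either strand, was in 8 of 70 member windows (11.4%) against 1.75% of all 32851 windows of the same length. The ETS core bound by GABP, CCGGAAG, was in 16 member windows (22.9%) against 8.86% of all. The YY1 motif AANATGGCG was in 10 member windows (14.3%) against 2.38%, and its matches lay at a median of 22.5 bases after the start, whereas the NRF1 matches lay at a median of 49 bases before it. TATAAA was in 6 member windows (8.57%) against 13.6% of all, and the GC box GGGCGGG in 22 (31.4%) against 25.6%. The element of the oestrogen-related receptors, TNAAGGTCA, was in 3 (4.29%) against 1.28%. Matches of 1 motif could overlap, as in the palindromic NRF1 core, and a match is a description of letters, not a measured binding site.

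For each complex, a member is shown to let the motifs be seen in place, chosen among members with a single window. It had the most NRF1 and ETS matches in the 150 bases before its start. Overlapping matches were counted separately, and ties were broken by symbol. The bases run 5′ to 3′ on the strand of the gene up to the base before the start, and capitals mark the NRF1 or ETS core. Ndufa11 (complex I, chr17:56717612-56717761, plus strand) has the palindromic NRF1 core, with overlapping matches starting 60 and 59 bases before the start. In Sdhd (complex II, chr9:50603850-50603999, minus strand) the ETS core begins 46 bases before the start. That of Uqcr11 (complex III, chr10:80406822-80406971, minus strand) begins 66 bases before it, and that of Cox6a1 (complex IV, chr5:115348959-115349108, minus strand) 16 bases before it. Atp5g2 (complex V, chr15:102671048-102671197, minus strand), 1 of the 3 genes for subunit c, has the NRF1 core 42 and 41 bases before the start.
Ndufa11: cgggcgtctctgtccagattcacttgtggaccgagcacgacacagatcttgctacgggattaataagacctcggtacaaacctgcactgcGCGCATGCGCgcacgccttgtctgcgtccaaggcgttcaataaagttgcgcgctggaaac
Sdhd: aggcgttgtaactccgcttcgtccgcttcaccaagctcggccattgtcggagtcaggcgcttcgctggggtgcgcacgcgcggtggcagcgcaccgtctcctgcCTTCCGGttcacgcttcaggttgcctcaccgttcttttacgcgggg
Uqcr11: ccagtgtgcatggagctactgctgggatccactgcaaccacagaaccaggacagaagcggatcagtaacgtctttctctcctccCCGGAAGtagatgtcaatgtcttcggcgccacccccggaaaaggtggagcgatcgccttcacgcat
Cox6a1: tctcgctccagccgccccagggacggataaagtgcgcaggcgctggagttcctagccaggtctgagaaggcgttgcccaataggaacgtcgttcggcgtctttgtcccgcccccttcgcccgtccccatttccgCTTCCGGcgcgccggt
Atp5g2: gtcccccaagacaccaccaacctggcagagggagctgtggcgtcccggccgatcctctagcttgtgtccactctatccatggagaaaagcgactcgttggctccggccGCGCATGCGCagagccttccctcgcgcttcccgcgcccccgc

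The first comparison set the PAM I group against the aged controls. Of the 82 members, 81 had a positive log2 fold change, with a median of 0.24 against 0.02 for all 17046 genes, but none passed an adjusted p of 0.05 in edgeR's quasi-likelihood test (lowest adjusted p = 0.506, against 0% of all genes called). The medians were 0.24 in complex I, 0.17 in complex II, 0.26 in complex III, 0.27 in complex IV and 0.22 in complex V, and the median standard error of a member was 0.13. At an unadjusted p under 0.05 there were 31 members (37.8%), all of them higher in PAM I, against 9.4% of all genes in either direction. In 28 members every PAM I library was above every aged control (34.1% of the members, against 3.07% of all genes): 14 in complex I, 3 in complex III, 5 in complex IV, 6 in complex V and none of the 4 in complex II. DESeq2 and limma voom called no member either, with 31 and 50 members at an unadjusted p under 0.05 against 10.7% and 19.1% of all genes.

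**Figure D2:**
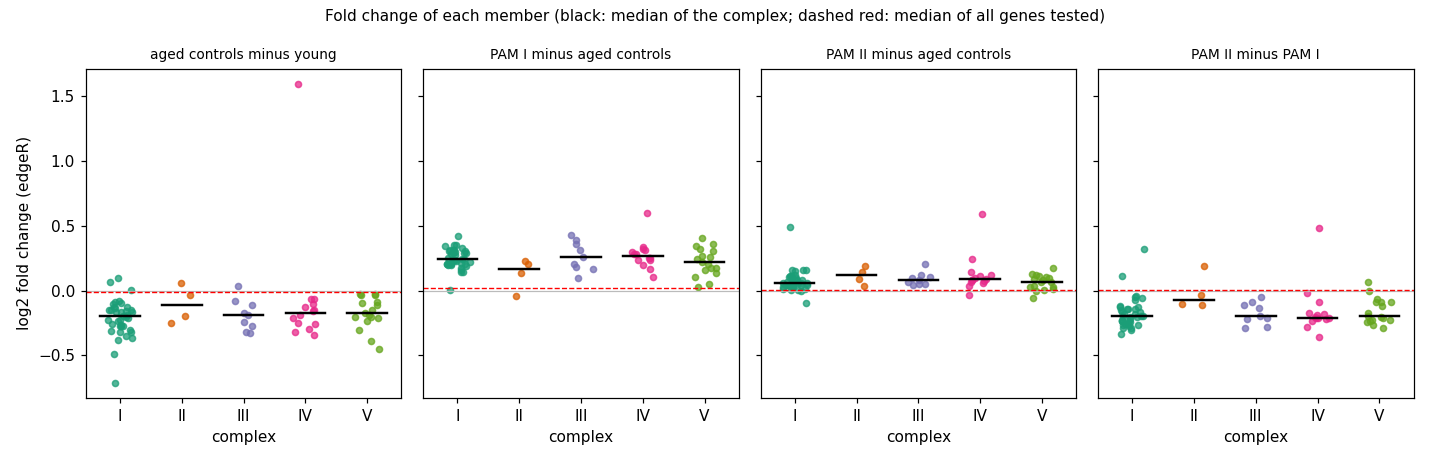
Log2 fold change of each of the 82 genes (points) by complex in 4 comparisons, with the median of the complex in black and the median of all genes tested as a dashed red line. In PAM I against the aged controls the medians lie between 0.17 and 0.27, and in PAM II against the aged controls between 0.06 and 0.12.

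Short transcripts as a class were also higher in PAM I. Among members with at most 1631 bases of exon the median log2 fold change was 0.28, and among longer members it was 0.20. Among all protein-coding genes tested, the 1223 genes in that shorter class had a median of 0.23 and the 12625 longer genes a median of -0.01. The 80 cytosolic ribosomal protein genes, which are short and were added as a list after the data had been seen, had a median of 0.18. Sdha and Ndufs1, the members with the lowest values, were in the longer class, with 4126 and 8086 bases. What transcript length contributes to the difference of the members was not tested.

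**Figure D3:**
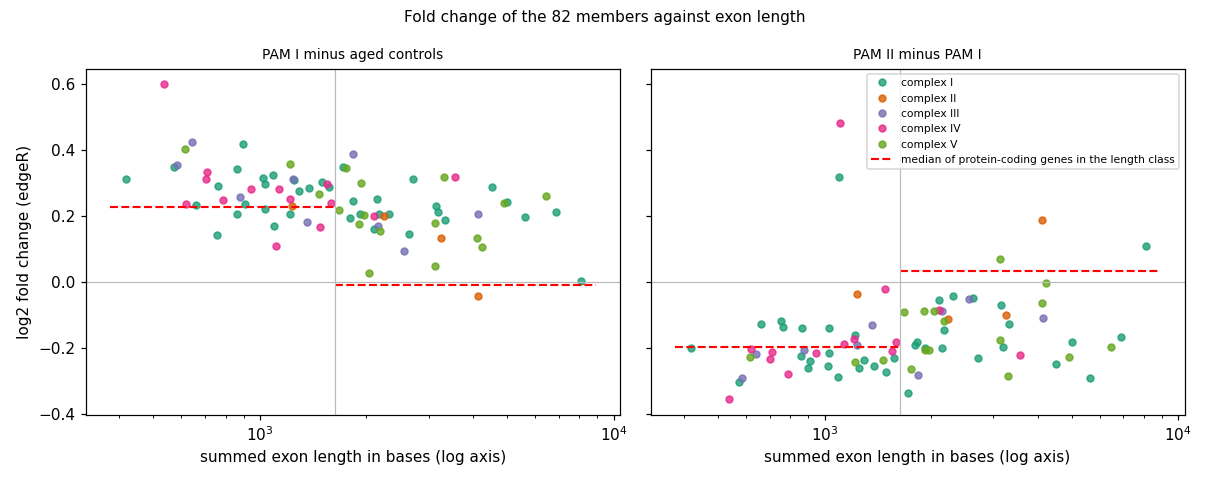
Log2 fold change of the 82 members against summed exon length (log axis) in PAM I against the aged controls (left) and PAM II against PAM I (right). Dashed red lines are the medians of all protein-coding genes at most 1631 bases long and longer: 0.23 and -0.01 on the left, -0.20 and 0.03 on the right.

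Complex I supplied the smallest p of this comparison. Ndufs6, a zinc-binding accessory subunit of the NADH-oxidising arm (ENSMUSG00000021606, chr13:73319838-73328542), was at 102, 97.8, 94.5 and 120 CPM in PAM I and at 75, 82.3, 72.9 and 79.5 CPM in the aged controls. The groups did not overlap, and the log2 fold change was 0.42 ± 0.12 (SE), with an adjusted p of 0.506 by edgeR. Ndufs4, an accessory subunit that is lost in a severe inherited complex I deficiency, was at 55.5, 56.4, 56.0 and 67.9 CPM in PAM I and at 43.1 to 50.6 CPM in the aged controls, a log2 fold change of 0.31 ± 0.10. Ndufa4 was at 225, 248, 240 and 269 CPM against 191, 213, 188 and 214 CPM, a log2 fold change of 0.28 ± 0.09. The 3 genes were thus higher in every PAM I library than in any aged control.

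Core subunits of complex I, those that carry its redox centres and have bacterial counterparts, had a median of 0.21 over 7 genes, and the 31 accessory subunits a median of 0.24. Ndufs7, a core iron-sulphur subunit next to the quinone site (ENSMUSG00000020153, chr10:80249121-80256794), was at 92.5, 87.5, 93.7 and 107 CPM in PAM I and at 74.3, 77.2, 63.7 and 83.4 CPM in the aged controls (0.35 ± 0.15). Ndufv1, the core subunit that binds NADH and flavin, was at 134 to 170 CPM against 116 to 152 CPM (0.15 ± 0.12), and the groups overlapped. Its value was 0.05 without aged control 4 and 0.07 without PAM I 4. Ndufs1, the largest core subunit, was at 93.9, 93.4, 70.9 and 89.4 CPM against 72.1, 107, 109 and 58.9 CPM, with a log2 fold change of 0.00 ± 0.20 whose sign depended on the scaling. The core genes of this complex thus held both a member near the top and the member at the bottom of its range.

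Complex II showed no member whose groups separated. Sdha, the flavoprotein that oxidises succinate (ENSMUSG00000021577, chr13:74322254-74350280), was the 1 member below 0: it was at 428, 400, 323 and 416 CPM in PAM I and at 371, 498, 496 and 250 CPM in the aged controls (-0.04 ± 0.21, with the opposite sign under upper-quartile scaling). The aged controls alone spanned a wider range than all 4 PAM I libraries. Sdhb, the iron-sulphur subunit, was at 185 to 190 CPM in PAM I and at 149 to 194 CPM in the aged controls (0.20 ± 0.12), and Sdhd had a log2 fold change of 0.23 ± 0.15 (0.13 without aged control 4 and 0.15 without PAM I 1). The 95% interval of the Sdha difference ran from -0.50 to 0.41, a range that holds the medians of the other complexes.

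In complex III, Uqcrh, Uqcrb and Uqcrq stood clear of the aged controls. Uqcrh, the hinge protein between cytochrome c1 and cytochrome c (ENSMUSG00000063882, chr4:116066965-116075071), was at 151, 140, 137 and 172 CPM in PAM I and at 127, 123, 112 and 123 CPM in the aged controls (0.31 ± 0.11), without overlap. Uqcr11 was at 259, 243, 200 and 270 CPM against 151, 189, 163 and 221 CPM (0.42 ± 0.19), with overlap. Cyc1, cytochrome c1 itself, had a log2 fold change of 0.17 ± 0.10, and Uqcrc2, a large core protein, 0.09 ± 0.13. Cyc1 was at 0.09 without aged control 4, and Uqcrc2 at 0.01 without aged control 1, 0.03 without aged control 4, 0.05 without PAM I 1, 0.06 without PAM I 2 and 0.16 without aged control 2. The standard errors are such that these 4 values were not shown to differ from each other.

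In complex IV, the oxidase, the 5 of 14 genes that stood clear of the aged controls were Cox4i1, Cox6a1, Cox6b1, Cox7a2 and Cox8a, all forms found in most tissues. Cox7a2, the liver form of subunit 7a (ENSMUSG00000032330, chr9:79755361-79759878), was at 125, 129, 128 and 143 CPM in PAM I and at 98.4, 113, 109 and 112 CPM in the aged controls (0.28 ± 0.10). Cox4i1, the common form of subunit 4, was at 368 to 450 CPM against 290 to 356 CPM (0.30 ± 0.13), and Cox6a1 was at 317 to 372 CPM against 229 to 317 CPM (0.31 ± 0.13). For all 3 genes the lowest PAM I library was above the highest aged control, for Cox6a1 by less than the rounding of the printed values. The muscle form Cox7a1 had the largest value of the complex, 0.60 ± 0.27, at only 0.789 to 2.18 CPM, and its groups overlapped. Summed CPM of 15 skeletal muscle markers ranged from 10.1 to 58.3 in PAM I and from 5.57 to 20.4 in the aged controls, and these ranges overlapped. In PAM I 1 to 4, Cox7a1 was at 2.14, 1.86, 1.43 and 2.18 CPM and the muscle sum at 57.4, 58.3, 10.1 and 10.1. In aged controls 1 to 4, Cox7a1 was at 1.17, 1.26, 0.789 and 1.80 CPM and the muscle sum at 6.43, 20.4, 5.57 and 12.4. What muscle RNA contributes to Cox7a1 was not tested.

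In complex V, Atp5k, subunit e of the membrane part (ENSMUSG00000050856, chr5:108433244-108434448), was at 109, 104, 101 and 122 CPM in PAM I and at 76.2, 97.2, 74.3 and 81.9 CPM in the aged controls (0.40 ± 0.14). Atp5mpl, a small proteolipid of the enzyme, had a log2 fold change of 0.36 ± 0.11, and Atp5l, subunit g, 0.26 ± 0.09. Atp5d, the delta subunit of the head, was at 379 to 462 CPM against 310 to 339 CPM (0.30 ± 0.11). The most abundant of these transcripts, Atp5b, was at 910 to 1107 CPM in PAM I and at 660 to 1143 CPM in the aged controls (0.10 ± 0.19), within the spread of the controls. Its value was -0.05 without aged control 4, 0.05 without PAM I 4 and 0.185 without aged control 3. The 5 genes of the catalytic head had a median of 0.18 and the other 12 genes of the enzyme a median of 0.23.

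Because single genes vary, each library was also given a score per complex, the mean over its genes of log2 CPM after each gene's mean over the 16 libraries was subtracted. In complex I the scores were 0.09, 0.12, 0.06 and 0.22 in PAM I and -0.22, -0.04, -0.24 and -0.02 in the aged controls. The same separation of all 4 libraries from all 4 was seen in complex III (0.01 to 0.25 against -0.27 to -0.01) and in complex V (0.04 to 0.24 against -0.17 to -0.03). Complex IV separated once its 3 barely expressed genes Cox4i2, Cox6b2 and Cox7a1 were left out, a step added after the data had been seen (0.05 to 0.26 against -0.25 to -0.02). With them included, the scores of the complex overlapped, at 0.13 to 0.30 against -0.40 to 0.16. Complex II overlapped, with -0.10 to 0.13 against -0.32 to 0.11. Scores were not tested, since the members were chosen with earlier results in view.

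**Figure D4:**
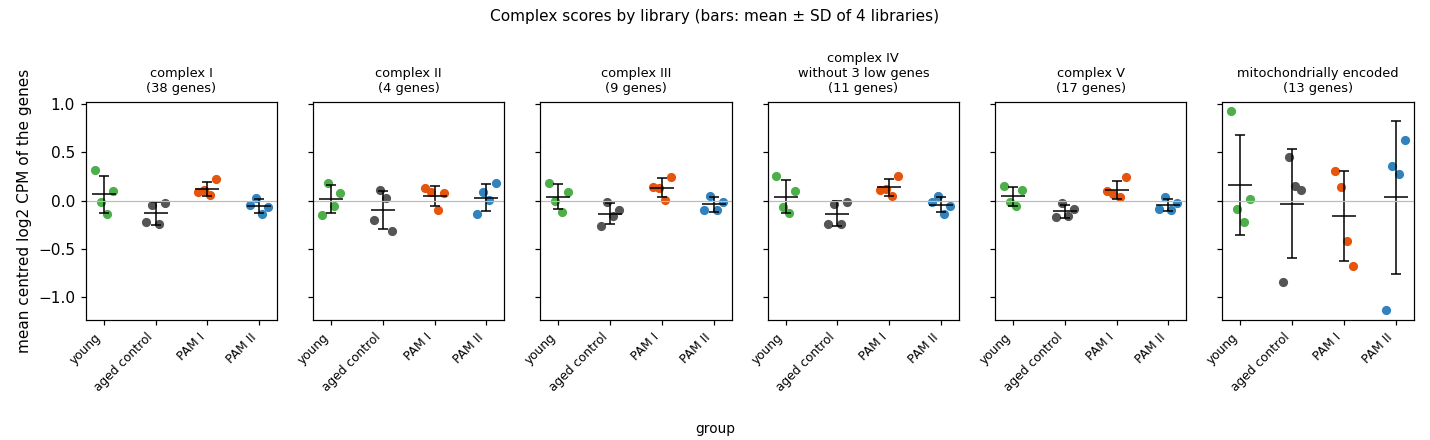
Score of each library (mean centred log2 CPM of the genes of a complex) by group, with mean ± SD of 4 libraries, for complexes I to V and for the 13 mitochondrially encoded genes. PAM I lies above the aged controls without overlap in complexes I, III, V and, without 3 genes, IV, whereas the mitochondrial scores span -1.14 to 0.93 and overlap in all groups.

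The share of all fragments that fell in the 82 genes, scaled by the total of each library alone, gave the same separation. It was 1.27%, 1.31%, 1.30% and 1.46% in PAM I against 1.11%, 1.19%, 1.09% and 1.25% in the aged controls, without overlap. The total includes mitochondrial mRNA, which took 7.07% of fragments in PAM I 1 and 8.77% in aged control 4. With that mRNA left out of the total, aged control 4 would reach PAM I 1, so the separation holds only for totals that include it. The share was 1.20% ± 0.054 (SD, n = 4) in PAM II and 1.17% ± 0.047 in the young mice. How many members stood clear of the controls moved with the processing and with single libraries: the 28 members became 13 (against 2.13% of all genes) when mitochondrial fragments were left out before scaling, and 49 without aged control 4 (against 9.56% of all genes). The 31 members at an unadjusted p under 0.05 became 5 without PAM I 4, 9 without aged control 1 and 10 without aged control 3. They became 17 without PAM I 2 or PAM I 3, 18 without PAM II 4, 19 without PAM I 1, and 20 without PAM II 3 or young 4. The median of all members kept its sign in each of these fits and ranged from 0.19 to 0.28 with 1 library left out.

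Next, PAM II was set against the aged controls. The members had a median log2 fold change of 0.07 against 0.01 for all genes, and 77 of 82 were above 0. No member passed in edgeR (0% of all genes called), and none was at an unadjusted p under 0.05 (2.73% of all genes). DESeq2 found none at that level and limma voom 1 (3.19% and 5.29% of all genes), and neither called any. In no member did the libraries separate upward (0.81% of all genes), although 7 members did so without aged control 2 (1.78% of all genes) and at most 3 without any other library that changed the count (1.35% to 3.58% of all genes). The complexes had medians of 0.06, 0.12, 0.08, 0.09 and 0.07 in the order I to V. Uqcr11 had 0.20 ± 0.19, Sdhd 0.19 ± 0.15 and Atp5k 0.17 ± 0.14 (0.12 to 0.31, 0.10 to 0.29 and at most 0.26 with 1 library left out), all within the spread between libraries. With 1 library left out the complex medians ranged from 0.01 to 0.09 in complex I, 0.04 to 0.21 in complex II, 0.04 to 0.12 in complex III, 0.03 to 0.14 in complex IV and 0.03 to 0.10 in complex V. With the muscle markers as a covariate, 48 of 82 members were above 0 and the median was 0.02. The median was 0.03 without aged control 1, aged control 3 or PAM II 2, and 0.11 without aged control 2.

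The comparison of PAM II with PAM I shares the PAM I libraries with the first comparison, so the values below are not independent of it. Here 77 members were below 0, with a median of -0.20 against 0.01 for all genes. None was called by edgeR (0% of all genes), DESeq2 or limma voom, and 11 members (13.4%) were at an unadjusted p under 0.05 in edgeR, against 4.56% of all genes. In 28 members every PAM II library was below every PAM I library (34.1%, against 2.9% of all genes), 19 of them in complex I, 2 in complex III, 2 in complex IV, 5 in complex V and none in complex II. Short protein-coding genes had a median of -0.20 and long ones 0.03. The members' own medians were -0.21 for short and -0.15 for long transcripts. DESeq2 and limma voom had 15 and 37 members at that level, against 5.5% and 17.1% of all genes. The 11 members became none without PAM I 4, 1 without PAM II 3, 2 without PAM I 1 or PAM II 4, and 3 without aged control 2, PAM I 2, young 2 or young 4. They became 4 without aged control 3, 5 without aged control 1 or PAM II 1, 6 without PAM I 3 and 18 without young 1. The 28 members became 47 without PAM II 2, against 4.23% of all genes.

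Ndufs7 was at 77.4, 78.7, 71.7 and 73.3 CPM in PAM II, below all of its PAM I values (-0.34 ± 0.15). Ndufa4 was at 196, 212, 209 and 206 CPM, again below every PAM I library (-0.26 ± 0.09, with an adjusted p of 0.88 by edgeR). Ndufs6 had a log2 fold change of -0.26 ± 0.12 and Ndufs4 one of -0.23 ± 0.10 (-0.15 without PAM I 4). In the other complexes Uqcr10, a small subunit of complex III, had -0.29 ± 0.13, Cox7a2 -0.21 ± 0.10 and Atp5l -0.20 ± 0.09. PAM II values of Ndufs7 lay inside the range of the aged controls, 63.7 to 83.4 CPM. Complex medians were -0.20 in complex I, -0.07 in complex II, -0.19 in complex III, -0.21 in complex IV and -0.20 in complex V. Without PAM I 4 those of complexes III and V were -0.11 and -0.13, and that of complex II ranged from -0.10 to -0.01 with 1 library left out.

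Age was examined by setting the aged controls against the young mice. Members were lower in the aged controls in 76 of 82 cases, with a median log2 fold change of -0.19 against -0.01 for all genes. None was called by edgeR, against 3.23% of all genes (lowest adjusted p = 0.0823). There were 12 members (14.6%) at an unadjusted p under 0.05, all of them lower in the aged controls. Of all 17046 genes, 19% were at that level in either direction, and 1479 genes were at that level and lower. The libraries separated downward in 3 members, Ndufs7, Ndufa1 and Uqcrh (3.66%, against 4.44% of all genes), a share near the background. They became 12 without young 3 (6.39% of all genes), 11 without aged control 2 (5.86%), 7 without aged control 4 (6.66%) and none under upper-quartile scaling (3.17%). DESeq2 and limma voom each had 15 members at an unadjusted p under 0.05, against 20.7% and 17.4% of all genes. Medians were -0.20 in complex I, -0.11 in complex II, -0.19 in complex III, -0.17 in complex IV and -0.17 in complex V. Without young 1 they were -0.12, -0.18, -0.08, -0.09 and -0.13 in the same order, and 67 members were below 0. The median of complex II, over 4 genes, also moved to -0.02 without young 2, -0.03 without aged control 4, -0.06 without aged control 1, -0.17 without aged control 3 and -0.20 without aged control 2. Short members had a median of -0.21 and long members -0.15, and short protein-coding genes had -0.08. Without young 1 the median of all members was -0.12, and it ranged from -0.24 to -0.12 with 1 library left out. Young 1 also had the highest summed skeletal muscle CPM of all libraries (148, against 6.19 to 39.9 in the other young mice), and what its muscle or mitochondrial RNA contributes was not tested. Markers of other cells differed with age as well, and those below did not overlap between the groups in the measure given. The score of the 10 hepatocyte markers was 0.25 to 0.33 in the young mice and -0.41 to 0.10 in the aged controls, and endothelial markers summed to 183 to 210 CPM against 109 to 155 CPM. Markers of recruited macrophages (39.5 to 58.6 against 74.1 to 193 CPM), B and T cells (15.3 to 34.3 against 62.5 to 134 CPM) and bile ducts (30.6 to 47.1 against 53.5 to 141 CPM) were higher in the aged controls, and red cell markers (224 to 373 against 114 to 218 CPM) were lower. In another measure some overlapped: summed hepatocyte CPM was 111850 to 123620 in the young mice and 87297 to 126850 in the aged controls. Scores of endothelial, bile duct and red cell markers overlapped too, whereas those of recruited macrophage and B and T cell markers did not. The gene Spp1 is on both the recruited macrophage and the bile duct list, so those sums are not separate. The part of all these markers in the age difference of the members was not tested.

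DESeq2 called 4 members lower in the aged controls (7.88% of all genes called): Ndufs7, Ndufa1, Uqcrh and Atp5k, with adjusted p from 0.0251 to 0.0489. With edgeR the smallest values were those of Ndufs7, at 146, 84.7, 88.9 and 100 CPM in the young mice against 74.3, 77.2, 63.7 and 83.4 CPM (-0.49 ± 0.15, adjusted p = 0.0823), and of Ndufa1, a small membrane subunit encoded on the X chromosome. Ndufa1 was at 84.9, 66.1, 67.0 and 83.6 CPM in the young mice against 53.4, 64.9, 51.7 and 62.2 CPM (-0.38 ± 0.11, adjusted p = 0.0836). The groups of both genes separated by narrow margins. Uqcrh was at 130 to 169 CPM against 112 to 127 CPM (-0.32 ± 0.11), and Atp5k at 92.2 to 150 CPM against 74.3 to 97.2 CPM (-0.45 ± 0.14). In edgeR, Ndufs7 passed without young 2 (adjusted p = 0.0473) and Ndufa12, an accessory subunit of complex I (-0.35 ± 0.12), passed without young 3 (adjusted p = 0.0365). Without young 1 the values of Ndufs7 and Atp5k were -0.29 and -0.28. The members at an unadjusted p under 0.05 became 29 without young 3, 20 without young 2 or aged control 4, and 8 without young 1 or aged control 1.

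With all 3 aged groups averaged against the young mice the members were closer to 0. The median was -0.07 against -0.03 for all genes, 64 members were below 0, and none was called by edgeR against 11.1% of all genes. Without young 1 there were 48 members below 0, and the medians were -0.01, -0.13, -0.04, 0.03 and -0.03 in complexes I to V. In edgeR, 5 members (6.10%) were at an unadjusted p under 0.05, against 28.3% of all genes, with 10 in DESeq2 and 4 in limma voom (30% and 28% of all genes). The 5 became none without young 1, 2 without young 4, 3 without PAM I 3 and 12 without young 3. Ndufs7 came nearest, at -0.37 ± 0.12 with an adjusted p of 0.0533, and DESeq2 called it alone among the members (adjusted p = 0.0259, 17.9% of all genes called). It passed in edgeR without aged control 4 (adjusted p = 0.0446), without young 2 (0.0289) and without young 3 (0.0455, where Ndufa12 passed too), and its value was -0.18 without young 1. The median of all members was -0.01 without young 1, -0.11 without young 2 and -0.13 without young 3, and -0.00 under upper-quartile scaling, so the size of the shift with age moved with single libraries. A test for any difference among the 4 groups called no member in edgeR (3.44% of all genes), with 13 members (15.9%) at an unadjusted p under 0.05 against 20.4% of all genes. DESeq2 called 6 members in that test (Ndufs7, Ndufs6, Ndufa1, Ndufa4, Ndufb11 and Uqcrh, against 11.2% of all genes), and limma voom called Ndufs7 (8.18% of all genes), with 17 and 27 members at an unadjusted p under 0.05 against 24.8% and 28.8% of all genes. The 13 members became 20 without young 3 and 3 without aged control 3. They became 5 without aged control 1, PAM II 3 or young 4, and 6 to 8 without any 1 of PAM I 1 to 4, PAM II 2, PAM II 4 or young 2.

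Tissue forms of several subunits were measured as a share of the summed level per kilobase of the forms. Cox7a1, the heart and muscle form of subunit 7a, made up 1.94% ± 0.494 of Cox7a1 and Cox7a2 together in the young mice (SD, n = 4), 2.00% ± 0.613 in the aged controls, 2.49% ± 0.418 in PAM I and 2.26% ± 0.113 in PAM II. Ndufa4l2, a form of Ndufa4 induced by low oxygen, made up 2.03% ± 1.06, 1.37% ± 0.509, 1.29% ± 0.342 and 1.89% ± 1.06 of the pair in the same order. Subunit c of the ATP synthase is encoded by 3 genes for the same mature protein. Of their sum, Atp5g3 supplied 72.7%, 74.0%, 73.0% and 73.5%, Atp5g2 14.4% to 15.3% and Atp5g1 11.2% to 13%. On raw counts with no length step, group means were 64.6% to 66.7% for Atp5g3, 9.78% to 10.7% for Atp5g2 and 22.7% to 25.6% for Atp5g1. The order of Atp5g1 and Atp5g2 thus depended on the length step. In an exact two-sided permutation test of each share in each of 4 comparisons (28 tests, where 4 against 4 can reach 0.0286 at best), none was under 0.05 and all adjusted p were 1.

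Cox4i2, the form of subunit 4 known from lung and from cells at low oxygen, was barely present: 2, 4, 6 and 1 fragments in the young libraries and between 1 and 32 in the aged ones. It had a fitted log2 fold change of 1.66 ± 0.72 in the 3 aged groups against young (adjusted p = 0.141 by edgeR) and 1.59 ± 0.82 in the aged controls alone (0.41 without aged control 4), and the groups overlapped. A fitted value from so few fragments depends on the prior count. The 32 fragments came from aged control 4, and the other 3 aged controls held 1 to 11. Cox6b2 was at 5 to 57 fragments in all libraries, and the 57 came from PAM II 1.

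The mitochondrial mRNAs of the same complexes were measured beside the nuclear ones. The 13 mitochondrially encoded subunit genes had median log2 fold changes of -0.15 in PAM I against the aged controls, -0.07 in PAM II against the aged controls and -0.23 in the aged controls against the young mice. None was called, against 0%, 0% and 3.23% of all genes. The nuclear medians were 0.24, 0.07 and -0.19, so the signs of the medians were opposite in both antibiotic comparisons and the same with age. This difference was not tested. The mitochondrial median with age includes young 1 and was not taken without it. Mitochondrial scores were 0.93 in young 1 and -0.22 to 0.02 in the other young mice, against -0.85 to 0.46 in the aged controls. For PAM II the mitochondrial direction depended on the measure. The mean mitochondrial score was 0.03 (SD 0.80) in PAM II and -0.03 (SD 0.56) in the aged controls. The fold changes of the 13 genes there ran from -0.89 to 3.13. PAM I 4 had the highest nuclear score of all libraries (0.24) and a mitochondrial score of -0.68. Aged control 1, with a nuclear score of -0.22, had a mitochondrial score of -0.85. Mitochondrial mRNA took 4.31% to 7.07% of fragments in PAM I, 4.53% to 8.77% in the aged controls, 3.98% to 7.80% in PAM II and 5.89% to 13.5% in the young mice. The nuclear scores spanned -0.23 to 0.24 over the 16 libraries and the mitochondrial ones -1.14 to 0.93, and young 1 was high in both.

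**Figure D5:**
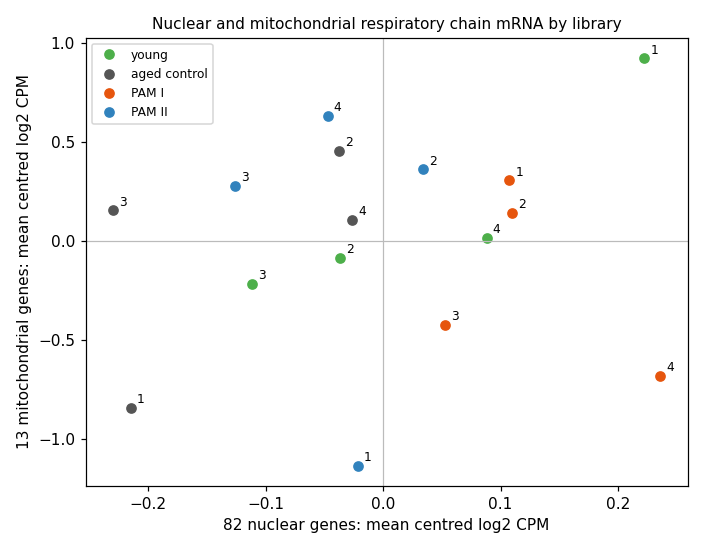
Score of the 82 nuclear genes (x axis) and of the 13 mitochondrial genes (y axis), both as mean centred log2 CPM, for each of the 16 libraries, numbered within their group. The 4 PAM I libraries lie to the right of the 4 aged controls at mitochondrial scores from -0.68 to 0.31, and young 1 is at the upper right.

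The genes that build, feed and control the chain were counted as lists. In PAM I against the aged controls, assembly factors had medians of 0.17 for complex I (17 tested genes), 0.16 for complex II (4), 0.07 for complex III (6), 0.17 for complex IV (21) and 0.16 for complex V (5), and none of them was called. Coenzyme Q synthesis genes (13) had 0.14, tricarboxylic acid cycle genes (17) 0.08 and regulators of mitochondrial biogenesis (16) -0.13, again with no call. In the aged controls against the young mice, Ndufaf6, an assembly factor of complex I, was lower (10.4 ± 1.11 CPM in the young mice and 7.57 ± 0.745 in the aged controls, SD, n = 4; -0.46 ± 0.11 SE, adjusted p = 0.0384 by edgeR). Higd1a, a small protein linked to complexes III and IV, was lower as well (-0.40 ± 0.10, adjusted p = 0.0398). In that comparison 3.23% of all genes were called. With the 3 aged groups averaged, the complex I assembly factors Ndufaf6, Ndufaf4 and Ecsit, the Q synthesis enzyme Coq3 and the mitochondrial RNA polymerase Polrmt were lower, by 0.29 to 0.35 on the log2 scale. Idh2, the mitochondrial NADP-dependent isocitrate dehydrogenase, was higher by 0.54 ± 0.09 (adjusted p = 0.00193) and Suclg2, a subunit of succinyl-CoA ligase, by 0.44 ± 0.14 (adjusted p = 0.0494). Of all genes, 11.1% were called with the 3 aged groups averaged. No gene of these lists was called in a comparison of antibiotic groups, where 0% of all 17046 genes were called. The lack of calls is thus not particular to these lists.

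The members varied little within a group. The median within-group SD of log2 CPM was 0.17 for the members and 0.32 for all genes tested. These sets were not matched for expression level, on which this SD depends. After group means were removed, the median correlation between pairs of members across the 16 libraries was 0.58 in complex I, 0.53 in complex IV, 0.34 in complex V, 0.12 in complex II and 0.03 in complex III, and 0.48 over all 3321 pairs. These values are a description, since all genes share the libraries, their depth and their scaling.

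Markers of other cells were set beside the differences. In PAM I against the aged controls, summed CPM of 8 Kupffer cell markers ranged from 182 to 844 against 130 to 556, of 5 B and T cell markers from 137 to 535 against 62.5 to 134, and of 3 red cell markers from 182 to 481 against 114 to 218. Summed B and T cell markers thus moved with the PAM I difference, without overlap but by a narrow margin. The score of the same 5 genes overlapped, at 0.13 to 1.81 in PAM I and -0.65 to 1.59 in the aged controls. The part of these markers in the result was not tested. With a muscle marker covariate the median of the members in that comparison was 0.22, and with a Kupffer cell marker covariate 0.25, close to 0.24 without. The heart genes Myh6 and Nppa, the pancreas gene Cel and the testis genes Prm1 and Tnp1 were at 0 in all libraries. Summed muscle CPM was 10.1 in PAM I 4, the library with the highest nuclear score, and 148 in young 1, the library with the next highest.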

How the data were processed

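Each library has 1 table of raw fragment counts per gene, deposited by the authors without normalization. The submitters' processing notes list Trimmomatic 0.38, HISAT2 2.1.0, the mm10 build and featureCounts 1.5.0-p2. Exon fragments were totalled for each Ensembl release 99 gene (GRCm38) under strand setting 1, per the file headers. Of 55471 identifiers, 241 had no symbol in GENCODE M21. The members and lists were chosen with earlier results of these data known. In R 4.3.3, edgeR 4.0.16 kept 17046 genes (filterByExpr), scaled by TMM and fitted 1 quasi-likelihood model to 16 libraries (biological coefficient of variation 27.3%). Tests were two-sided, with Benjamini-Hochberg adjustment over all genes. Log2 CPM used a prior count of 2. DESeq2 1.42.0, limma 3.58.1 and other settings were alternatives. The code was tested on simulated data. Named genes were those of largest change or smallest p per complex, the catalytic core, tissue forms and highest and lowest levels.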

Additional observations from a re-analysis of the deposited data

Results flagged for a closer look

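In groups of 4 libraries, a value was marked where its gap to the nearest other library was above Dixon's 95% critical value as a share of the whole range. Of 152 groups tested (scores, shares and the genes given by library), 12 were marked, and chance marks about 1 in 20. PAM I 4 was highest in its group in the score of complex IV (0.304 against 0.133 to 0.137), in Ndufs4 (67.9 CPM against 55.5 to 56.4) and in Atp5d (462 CPM against 379 to 392). In the same group Uqcrc2 was lowest in PAM I 3 (178 CPM against 202 to 206). PAM II 4 was highest in Ndufv1 (160 CPM; 159.7 against 140 to 143) and Sdhd (172 CPM against 154 to 157). PAM II 1 was highest in Uqcrh (146 CPM against 125 to 128) and Cox6b2 (0.980 CPM against 0.127 to 0.196). Sdhb was highest in aged control 2 (194 CPM against 149 to 157). Young 1 was highest in Uqcr11 (333 CPM against 167 to 195), in Ndufa4l2 (6.38 CPM against 2.55 to 3.02) and in the share of mitochondrial mRNA (13.5% against 5.89% to 6.10%).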

How the results depend on the processing

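Every median over all members kept its sign under the scalings, filters, tests, covariates and left-out libraries tried, and moved by less than the spread between replicates. Among the complex medians, 11 values over 7 settings had the opposite sign, all in the 3 aged groups against young (highest 0.07, complex II without young 2). DESeq2 called 4 members in the aged controls against young, 1 in the 3 aged groups against young and 6 over the 4 groups, where limma voom called 1 and edgeR 0. Members with separate libraries fell from 3 to 0 in the aged controls against young under upper-quartile scaling, and from 28 to 13 in PAM I against the aged controls with mitochondrial fragments removed. With the muscle covariate 48 of 82 members, against 77, were above 0 in PAM II against the aged controls. The cause was not tested.

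Values near 0 in PAM I against the aged controls turned sign. Ndufs1 was at -0.0073 under RLE scaling, with a stricter filter and in DESeq2, at -0.0565 in limma voom, at -0.0106 with only the groups compared, at -0.0022 with mitochondrial fragments removed and at -0.0351 with the muscle covariate. Sdha was at 0.0094 under upper-quartile scaling and at 0.0336 with the Kupffer covariate. With 1 library left out, Ndufs1 ranged from -0.163 to 0.110, Sdha from -0.237 to 0.0587 and Atp5b from -0.0549 to 0.185.

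With 1 library left out, members called ranged from 0 to 1 in the aged controls against young and from 0 to 2 in the 3 aged groups against young, and were 0 in the other comparisons. Members with separate libraries ranged from 3 to 12 (aged controls below young), 28 to 49 (PAM I above aged controls), 0 to 7 (PAM II above aged controls) and 28 to 47 (PAM II below PAM I). No paired analysis was possible because the labels give no pairing of libraries across groups. With 4 libraries a group, the median standard error of a member in PAM I against the aged controls was 0.13 on the log2 scale. The score of complex IV without 3 genes, the length classes, the ribosomal list and the alternatives for separate libraries were added after seeing the data.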
